A study of Rattus norvegicus with 13 samples.

Results

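Substance P, neurokinin A, neurokinin B, kisspeptin and the RFamide-related peptides are signalling peptides of hypothalamic neurons, and their transcripts and receptors are described here in rats raised on fructose or on chow. The genes were taken by symbol from a table of 17366 rows of FPKM (fragments scaled by transcript length and by the mapped fragments of the library). They are the precursors Tac1, Tac3, Kiss1 and Npvf and the receptors Tacr1, Tacr3 and Kiss1r, and all 7 were found as 1 row each. RNA came from the whole hypothalamus of 13 rats, 6 on a diet with 55% fructose and 7 on standard chow with 0.30% fructose. Both diets started on postnatal day 25, and all animals were fasted overnight on day 79 before they were killed on day 80. Death followed by 1 h an intraperitoneal dose of glucose (2 g per kg) or saline, given to 31 and 29 rats of the wider cohort. Which of the 13 rats had which injection, their sex, strain and oestrous stage, and which of the pair-housed animals shared a cage are not stated in the labels.

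Tac1 encodes the precursor of substance P and neurokinin A, and Tac3 (named Tac2 in mice) that of neurokinin B. Tacr1 is the preferred receptor of substance P and Tacr3 that of neurokinin B, and both signal mainly through the Gq family of G proteins. Kiss1 encodes kisspeptin, which acts on Kiss1r on neurons that release gonadotropin-releasing hormone, and many kisspeptin neurons of the arcuate nucleus also make neurokinin B and dynorphin. Npvf encodes the RFamide-related peptides, made by neurons of the dorsomedial hypothalamus and known for restraining the reproductive axis.

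The upstream sequences of Tac1, the member that rose on fructose, and of Tacr3, the member closest to Tac1 from rat to rat, are given to show what the 2 promoters hold. Of the 7 genes 6 have a promoter entry in RefSeq (build GRCr8), and Tac3 has none. Each line is the 250 bases before the annotated start, 5′ to 3′ on the strand of the gene. Capitals mark matches to the TATA box letters TATAAA, the core TGACG of the cAMP response element (printed as CGTCA where it lies on the other strand) and the E-box CACGTG. Matches were sought on both strands, and no marked matches overlap.
Tac1, chr4:36645333-36645582, plus strand: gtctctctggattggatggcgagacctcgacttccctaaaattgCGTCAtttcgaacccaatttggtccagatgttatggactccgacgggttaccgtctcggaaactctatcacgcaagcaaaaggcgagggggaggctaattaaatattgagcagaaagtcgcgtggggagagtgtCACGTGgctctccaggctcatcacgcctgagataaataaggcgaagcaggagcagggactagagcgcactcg
Tacr3, chr2:225940247-225940496, plus strand: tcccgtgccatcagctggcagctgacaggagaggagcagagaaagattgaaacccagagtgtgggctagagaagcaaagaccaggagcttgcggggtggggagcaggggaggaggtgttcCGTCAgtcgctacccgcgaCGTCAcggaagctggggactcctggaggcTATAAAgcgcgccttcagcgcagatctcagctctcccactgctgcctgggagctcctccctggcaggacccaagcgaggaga

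The Tac1 window held 1 response element core, 206 to 202 bases before the start, and 1 E-box, 72 to 67 bases before it. The Tacr3 window held 2 response element cores and 1 TATA box. Across the 6 promoters, 4 held the response element core, 3 the TATA box and 1 the E-box. Of 33469 rat promoter windows of the same length, 18.2% held the response element core, 12.9% the TATA box and 5.59% the E-box. These are matches of letters and not measured binding sites.

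Total FPKM per rat lay between 556902 and 608058, no columns were identical, and the read depth is not given. Transcripts that define the hypothalamus ranged widely in level. The melanin-concentrating hormone gene Pmch stood at 1345 to 5669 FPKM in fructose rats and 3607 to 7136 FPKM in chow rats. The hypothalamic transcription factor gene Rax averaged 0.206 FPKM on fructose and 0.157 FPKM on chow. Among arcuate markers Cartpt, a neuropeptide precursor gene, averaged 174 FPKM on fructose and 186 FPKM on chow, whereas Agrp lay between 0 and 1.06 FPKM in fructose rats and 0.302 and 1.92 FPKM in chow rats, and Npy, which many neurons express, was listed at 0 in all 13 rats, so a 0 in this table can be a failed estimate. Rat to rat, markers of neighbouring regions differed widely, and they are given beside the peptides they move with.

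Of the 7 genes, Tac1 was the one called different between diets, and it was higher on fructose. The call was made by limma on log2(FPKM + 0.5) with a Benjamini-Hochberg adjusted p under 0.05 over the 11837 genes whose mean reached 0.5 FPKM. In that comparison 3.94% of the genes tested were called in either direction and 1.66% of the genes tested were called higher on fructose, so 1 of 7 stands beside a background of that size. At an unadjusted p under 0.05 stood 2 of the 7, Tac1 and Kiss1, against 19.2% of all genes tested. Both estimates were above 0, as for 8.59% of all genes at that unadjusted p. Kiss1 reached the mean of 0.5 FPKM only through the fructose rats, its chow mean being 0.258 FPKM. Its unadjusted p and the sign of its estimate are therefore no support for a difference. By the exact permutation test 1 of the 7, Tac1, had an unadjusted p under 0.05, against 18.8% of all genes. In none of the 7 were the diets without overlap, against 1.61% of all genes.

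**Figure D1:**
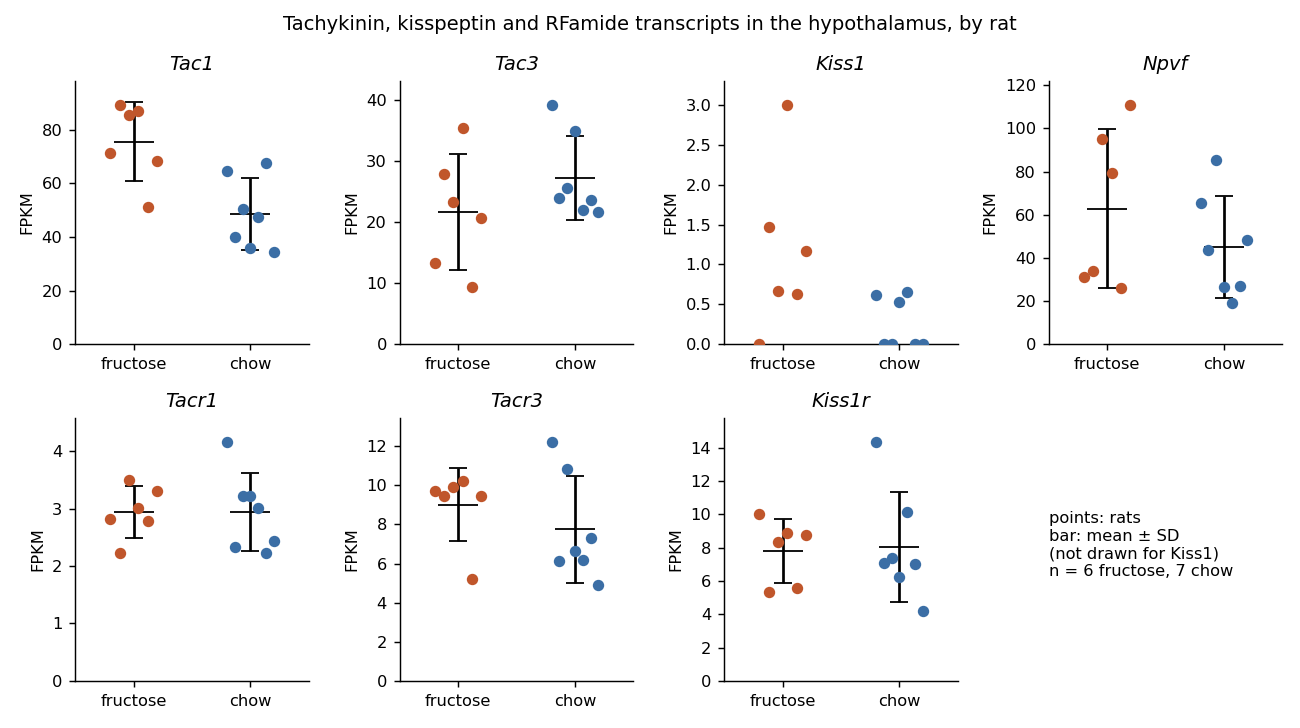
FPKM of the 7 transcripts in each rat, 6 on fructose (left in each panel) and 7 on chow (right), on axes that start at 0. Bars are mean ± SD, not drawn for Kiss1. For Tac1, 5 of 6 fructose rats lie above the highest chow rat, whereas the diets overlap broadly for Npvf and the 3 receptors.

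Tac1 stood at 71.3, 89.2, 85.6, 87.1, 51.1 and 68.2 FPKM in fructose replicates 1 to 6. In chow rats its lowest, median and highest values were 34.4, 47.4 and 67.4 FPKM. Thus 5 fructose rats lay above every chow rat, while fructose replicate 5 lay among the upper chow rats, below chow replicates 1 and 6 (64.4 and 67.4 FPKM). The means were 75.4 ± 14.7 FPKM (SD, n = 6) on fructose and 48.5 ± 13.2 FPKM (SD, n = 7) on chow. The log2 fold change was 0.65 ± 0.17 (SE, limma adjusted p = 0.0464), which is 1.57-fold with a 95% interval of 1.22 to 2.02. By p it was 417th of the 466 genes called, and 2.64% of the genes tested had a larger absolute log2 fold change. When the diets were reassigned in all 1716 ways, the exact permutation p (two-sided) was 0.00991, and 0.138 after adjustment over all genes.

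The call for Tac1 depended on single rats, but its direction did not. With 1 rat left out the log2 fold change stayed between 0.58 and 0.76 and the unadjusted limma p between 0.000323 and 0.00483. The adjusted p was under 0.05 in 3 of the 13 such fits, without chow replicate 1 (0.0189), chow replicate 6 (0.0318) or fructose replicate 5 (0.0202). It was 0.102, 0.0641, 0.0960, 0.0797 and 0.0912 without chow replicates 2, 3, 4, 5 and 7. It was 0.0607, 0.107, 0.0839, 0.109 and 0.0906 without fructose replicates 1, 2, 3, 4 and 6.

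**Figure D2:**
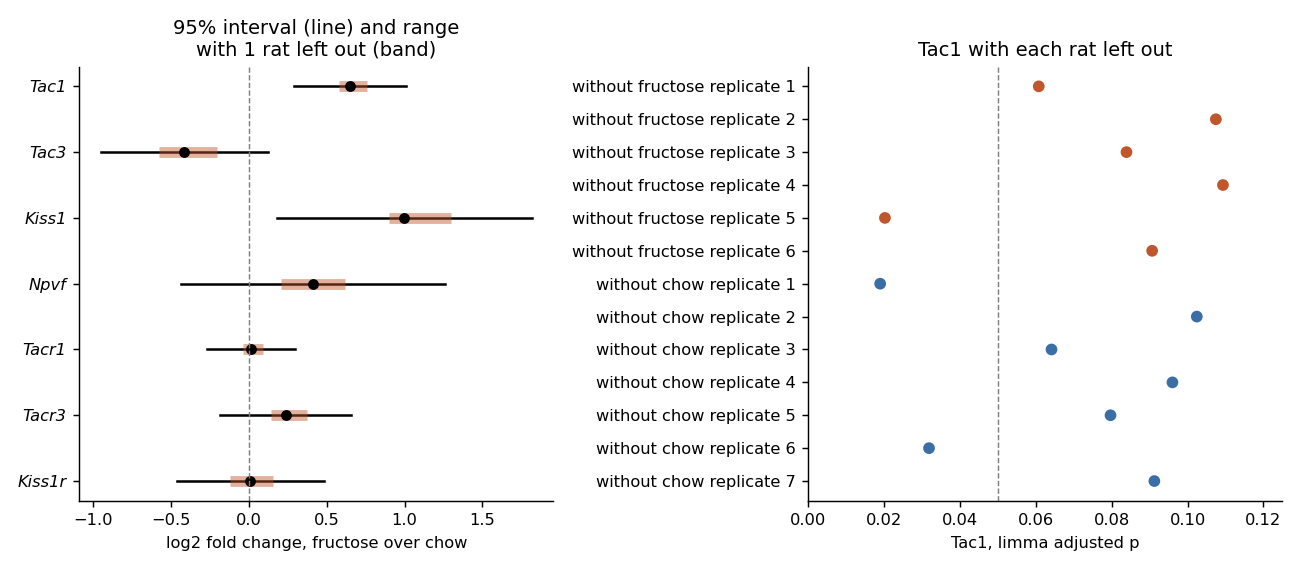
Left, log2 fold change of fructose over chow for the 7 genes (points), with the 95% limma interval (line) and the range of estimates with 1 rat left out (band). Right, the limma adjusted p of Tac1 without each rat in turn, with the threshold of 0.05 dashed. The Tac1 interval lies above 0, from 0.29 to 1.01, while 3 of the 13 points in the right panel lie under the threshold.

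Tac3, the neurokinin B precursor, did not pass the test, and its estimate was below 0. It stood at 13.3, 27.9, 23.4, 35.5, 9.40 and 20.7 FPKM in fructose replicates 1 to 6, and at 21.6, 24.0 and 39.2 FPKM (lowest, median and highest) in chow rats. The lowest values were in fructose replicates 5, 1 and 6, which lay below all chow rats, and the other fructose rats lay within the chow range. The means were 21.7 ± 9.51 FPKM (SD, n = 6) on fructose and 27.3 ± 6.90 FPKM (SD, n = 7) on chow, and the log2 fold change of Tac3 was -0.41 ± 0.25 (SE, adjusted p = 0.401 by limma). The 95% interval, -0.95 to 0.12 on the log2 scale, holds both no difference and a fall to 0.517 of the chow level. The estimates of Tac1 and Tac3 had opposite signs. That of Tac1 was called, and the interval of Tac3 leaves its sign unsettled.

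Kiss1, the kisspeptin precursor, was near the limit of detection. It was listed at 0, 1.47, 0.664, 3.00, 0.630 and 1.17 FPKM in fructose replicates 1 to 6. In chow replicates 1, 4 and 5 it was listed at 0.613, 0.534 and 0.659 FPKM, and in the other 4 chow rats at 0. After scaling each library by the spacing of its low values, these levels fell on whole multiples of 0.612 FPKM, within 0.0876 of a multiple. That unit was the median of the lowest values above 0, so rats read as 1 fragment lie near it by construction. Among rats above 0, only fructose replicates 2, 4 and 6 (2, 5 and 2 fragments) could depart from the spacing. Read as such multiples, the gene rested on 11 fragments in 6 fructose rats and 3 fragments in 7 chow rats, and 5 of the 11 came from fructose replicate 4. The ratio of these counts per unit of depth was 4.58, with an exact 95% interval of 1.21 to 25.6 that covers counting error only and leaves out the spread between rats.

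The limma log2 fold change of Kiss1 was 1.00 ± 0.38 (SE, adjusted p = 0.166) and the exact two-sided permutation p over rats was 0.0507. The size of that estimate rests on the pseudocount, since it was 0.69 with a pseudocount of 1 and 1.86 with one of 0.1. Without fructose replicate 1, the fructose rat listed at 0, it was 1.30 with a limma adjusted p of 0.0465. Kiss1 passed the filter on low values through the fructose rats, since its chow mean was 0.258 FPKM. Its limma p-values therefore give no support for a difference between diets. A difference between diets was not detectable at this depth by the adjusted test over all rats.

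Npvf, the RFamide-related peptide precursor, varied more between rats than between diets. It stood at 31.3, 33.8, 94.9, 79.5, 26.0 and 111 FPKM in fructose replicates 1 to 6, and at 19.2, 43.7 and 85.4 FPKM (lowest, median and highest) in chow rats. The fructose rats fell into a high and a low set, with 3 fructose rats at 79.5 FPKM or more and 3 at 33.8 FPKM or less. The means were 62.7 ± 36.9 FPKM (SD, n = 6) on fructose and 45.1 ± 23.8 FPKM (SD, n = 7) on chow. The log2 fold change was 0.41 ± 0.40 (SE, limma adjusted p = 0.641), with a 95% interval of -0.44 to 1.26.

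Among the receptors, none of the 3 was called, and their mean levels were close between diets. The substance P receptor Tacr1 stood at 2.82, 2.23, 3.49, 3.02, 2.78 and 3.31 FPKM in fructose replicates 1 to 6, and at 2.23, 3.02 and 4.16 FPKM (lowest, median and highest) in chow rats. Its log2 fold change was 0.01 ± 0.13 (SE, limma adjusted p = 0.978), with a 95% interval of -0.27 to 0.29, the narrowest of the 7. A change beyond 1.23-fold up or to under 0.828 of the chow level lies outside that interval.

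The neurokinin B receptor Tacr3 stood at 9.73, 9.47, 9.90, 10.2, 5.23 and 9.46 FPKM in fructose replicates 1 to 6. Its lowest, median and highest values in chow rats were 4.91, 6.63 and 12.2 FPKM. So 5 fructose rats sat in a narrow band, fructose replicate 5 far below it, and chow replicates 1 and 3 (12.2 and 10.8 FPKM) above it. The log2 fold change was 0.23 ± 0.20 (SE, limma adjusted p = 0.575), with a 95% interval of -0.19 to 0.66. The kisspeptin receptor Kiss1r stood at 10.01, 5.33, 8.34, 8.89, 5.58 and 8.79 FPKM in fructose replicates 1 to 6, and at 4.18, 7.06 and 14.4 FPKM (lowest, median and highest) in chow rats. Its log2 fold change was 0.01 ± 0.22 (SE, limma adjusted p = 0.990), with a 95% interval of -0.46 to 0.48, and the sign of this and of the Tacr1 estimate turned under quantile normalization (-0.01 and -0.06).

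FPKM is scaled by transcript length, so levels can be ordered between genes. On fructose the order of mean FPKM was Tac1, Npvf, Tac3, Tacr3, Kiss1r, Tacr1 and Kiss1, and on chow it was the same but for Kiss1r and Tacr3, which changed places. Tac1 and Npvf were not separated, with Tac1 the higher of the pair in 4 of 6 fructose rats and 3 of 7 chow rats. Tacr3 and Kiss1r were not separated either, with Tacr3 higher in 4 of 6 fructose rats and Kiss1r in 3 of 7 chow rats. Among neighbours in the order, the ranges of Kiss1r and Tacr1 did not overlap on fructose, and on chow those of Tac3 and Kiss1r, of Tacr3 and Tacr1, and of Tacr1 and Kiss1 did not. Kiss1r was thus listed well above its ligand's transcript, with mean FPKM of 7.82 against 1.16 on fructose and 8.05 against 0.258 on chow.

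All but 1 of the 7 transcripts were more variable within a diet than most genes of similar level. The SD of log2(FPKM + 0.5) within diets was 0.35 for Tac1, 0.52 for Tac3, 0.83 for Npvf, 0.40 for Tacr3 and 0.46 for Kiss1r. Among genes with a mean FPKM within 1.5-fold of each, this SD exceeded that of 97.0%, 99.0%, 99.8%, 94.9% and 96.6%, in the same order of genes. For Kiss1, on its few fragments, it was 0.78 and exceeded 96.8%. Tacr1 was the exception, with an SD of 0.24 that exceeded 45.6% of 1255 genes.

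Deviations from the diet means were then compared between the 7 genes over the 13 rats, in 21 pairs. The correlation was positive in all 21 pairs, and 0 passed after adjustment, with 7 at an unadjusted permutation p under 0.05 (permuted within diets). The closest pair was Tac1 with Tacr3 (Pearson r = 0.75, permutation p = 0.00721, adjusted p = 0.0892, Spearman rho = 0.71, permutation p = 0.0107, adjusted p = 0.120). It was 0.87 within the fructose rats and 0.69 within the chow rats, and 0.81 without the 2 rats farthest from the median of Tac1. Fructose replicate 5 was the lowest of its diet in both genes, at 51.1 FPKM of Tac1 and 5.23 FPKM of Tacr3. The other fructose rats spanned only 9.46 to 10.2 FPKM of Tacr3, and r within fructose was not computed without replicate 5. Tac3 and Kiss1 gave r = 0.70 (permutation p = 0.0212, adjusted p = 0.0892, rho = 0.67, permutation p = 0.0171, adjusted p = 0.120) and 0.72 without the 2 farthest rats, though Kiss1 was read from few fragments.

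Tac3 with its receptor gene Tacr3 gave r = 0.63 (permutation p = 0.00859, adjusted p = 0.0892, rho = 0.65, permutation p = 0.0131, adjusted p = 0.120), and 0.45 without the 2 farthest rats. Tac1 with its preferred receptor gene Tacr1 gave r = 0.16 (permutation p = 0.641, adjusted p = 0.673, rho = 0.04, permutation p = 0.897, adjusted p = 0.934). Kiss1 with Kiss1r gave r = 0.22 (permutation p = 0.453, adjusted p = 0.528, rho = 0.34, permutation p = 0.276, adjusted p = 0.414). Without the 2 farthest rats these were 0.42 and 0.48, close to the 0.45 of Tac3 with Tacr3. Differences between these correlations were not tested.

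**Figure D3:**
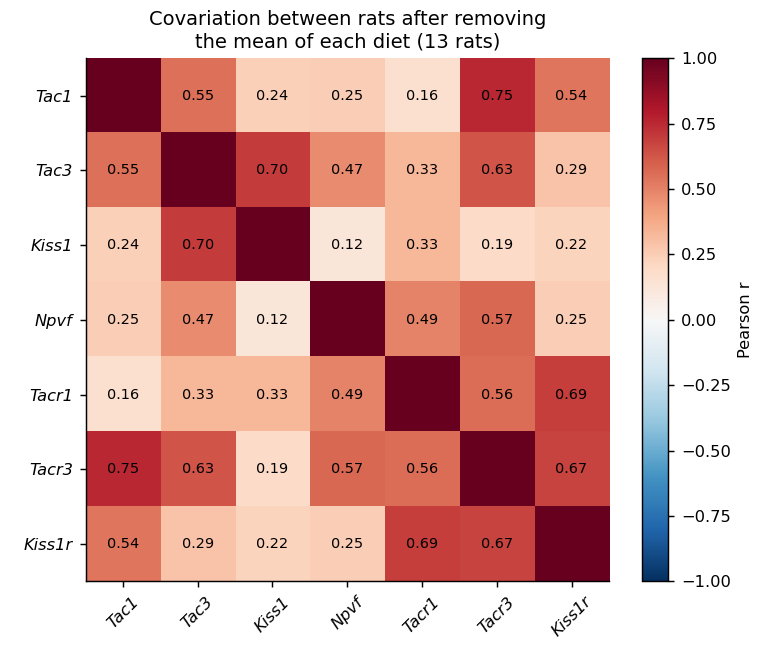
Pearson r over 13 rats between the 7 transcripts, on log2(FPKM + 0.5) after taking away the mean of each diet. All off-diagonal values are above 0, from 0.12 for Kiss1 with Npvf to 0.75 for Tac1 with Tacr3.

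Regional marker lists, chosen with earlier results of these data known, are given by their levels beside the peptides. The level of a list is the mean of log2(FPKM + 0.5) over its genes above 0 in at least 1 rat. Premammillary and mammillary markers, a posterior hypothalamic region whose ventral premammillary neurons express Tac1 in mice, averaged 2.67 ± 0.25 (SD, n = 6) on fructose and 2.17 ± 0.26 (SD, n = 7) on chow, with 5 of 6 fructose rats above all chow rats. The rats lowest in this level within each diet, fructose replicate 5 (2.27) and chow replicates 4 and 7 (1.78 and 1.83), were also the lowest in Tac1, at 51.1 FPKM and at 35.8 and 34.4 FPKM. At the high end the orders differed. Fructose replicate 1, second highest in its diet in this level (2.91), had less Tac1 (71.3 FPKM) than fructose replicates 2, 3 and 4, and the chow rats highest in the level were replicates 3 and 5 (2.41 and 2.37) while those highest in Tac1 were replicates 6 and 1.

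Of the 13 tested genes of this list 3 rose on fructose, 0 fell and 10 did not pass, with a median log2 fold change of 0.49 against 0.00 over all genes. They were Foxa1, a forkhead transcription factor that is also on the midbrain dopamine neuron list (1.06 ± 0.24, SE, limma adjusted p = 0.0312), Foxb1, a forkhead factor of the mammillary region (0.99 ± 0.23, adjusted p = 0.0320), and Adcyap1, the precursor of the peptide PACAP (1.02 ± 0.24, adjusted p = 0.0344). Their calls were kept in 6, 7 and 6 of the 13 limma fits with 1 rat left out, with adjusted p up to 0.0648, 0.0767 and 0.0838. All 3 calls were lost without chow replicates 2, 4 or 7 or fructose replicates 3, 4 or 6, and those of Foxa1 and Adcyap1 also without fructose replicate 2.

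Markers of midbrain dopamine neurons, which can be cut with the posterior hypothalamus, averaged 3.68 ± 0.45 (SD, n = 6) on fructose and 1.87 ± 0.23 (SD, n = 7) on chow, and the lowest fructose rat (2.96) lay above the highest chow rat (2.24). Of the 16 tested, 15 rose, and 13 to 16 with 1 rat left out. Thalamus markers averaged 4.37 ± 0.65 on fructose and 5.37 ± 0.43 on chow, and 11 of the 17 tested fell and 1, Calb2, rose. The 11 that fell became 1 (Zic1) without chow replicates 2, 4 or 7 or fructose replicates 4 or 6, 2 without fructose replicate 2, 3, 4 and 7 without chow replicates 5, 3 and 6, and 9 to 13 in the other fits with 1 rat left out. Blood cell markers averaged 4.27 ± 0.52 on fructose and 3.22 ± 0.30 on chow, and 5 of the 8 tested rose (4 to 5 with 1 rat left out). Markers of the medial habenula, whose neurons also express tachykinin genes, averaged 2.07 ± 0.15 on fructose and 2.03 ± 0.16 on chow, and 1 of the 7 tested rose, again Calb2, a gene on both lists whose call was lost without chow replicates 2 or 4 or fructose replicates 2, 4 or 6. Fewer cells of a type and less RNA per cell cannot be told apart in such tissue, and the part of these regions in the Tac1 difference was not tested.

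After the diet means were taken away, the 4 peptide transcripts were set against the 11 list levels, 44 relations chosen after the data were seen, and 3 passed after adjustment. Tac3 moved with the level of the 14 genes that define the hypothalamus, among them Oxt, Avp, Pmch and Hcrt (r = 0.85 over 13 rats, permutation p = 0.00069, adjusted p = 0.0249, rho = 0.91, permutation p = 0.0003, adjusted p = 0.0132). It was 0.88 within each diet and 0.79 without the 2 farthest rats. Tac3 also moved with the arcuate and mediobasal markers, a list that shares 6 genes with the hypothalamus list (r = 0.85, permutation p = 0.00113, adjusted p = 0.0249, rho = 0.81, permutation p = 0.00264, adjusted p = 0.0581). It was 0.87 within the fructose rats, 0.86 within the chow rats and 0.72 without the 2 farthest rats.

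The third relation was that of Npvf with genes of the reproductive hypothalamus (r = 0.81, permutation p = 0.00276, adjusted p = 0.0405, rho = 0.73, permutation p = 0.0129, adjusted p = 0.0856). It was 0.87 within the fructose rats, 0.72 within the chow rats and 0.76 without the 2 farthest rats. For Tac1 none passed. Its largest were with the premammillary and mammillary level (r = 0.73, permutation p = 0.0101, adjusted p = 0.0739, rho = 0.54, permutation p = 0.0645, adjusted p = 0.177) and with the thalamus level (r = -0.68, permutation p = 0.00884, adjusted p = 0.0739, rho = -0.70, permutation p = 0.00938, adjusted p = 0.0856). They were 0.52 and -0.58 without the 2 farthest rats. With the midbrain dopamine neuron level Tac1 gave r = 0.24 (permutation p = 0.408, adjusted p = 0.599, rho = 0.39, permutation p = 0.204, adjusted p = 0.359), and 0.39 without the 2 farthest rats. The other peptides also had relations that did not pass. For Tac3, Kiss1 and Npvf in that order, r with the thalamus level was -0.75, -0.62 and -0.25. It was 0.72, 0.71 and 0.52 with the striatum and forebrain level, and 0.73, 0.74 and 0.69 with the dorsomedial and ventromedial level. Npvf gave -0.65 with the midbrain dopamine neuron level. The permutation adjusted p of each of these was 0.0739 or more.

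**Figure D4:**
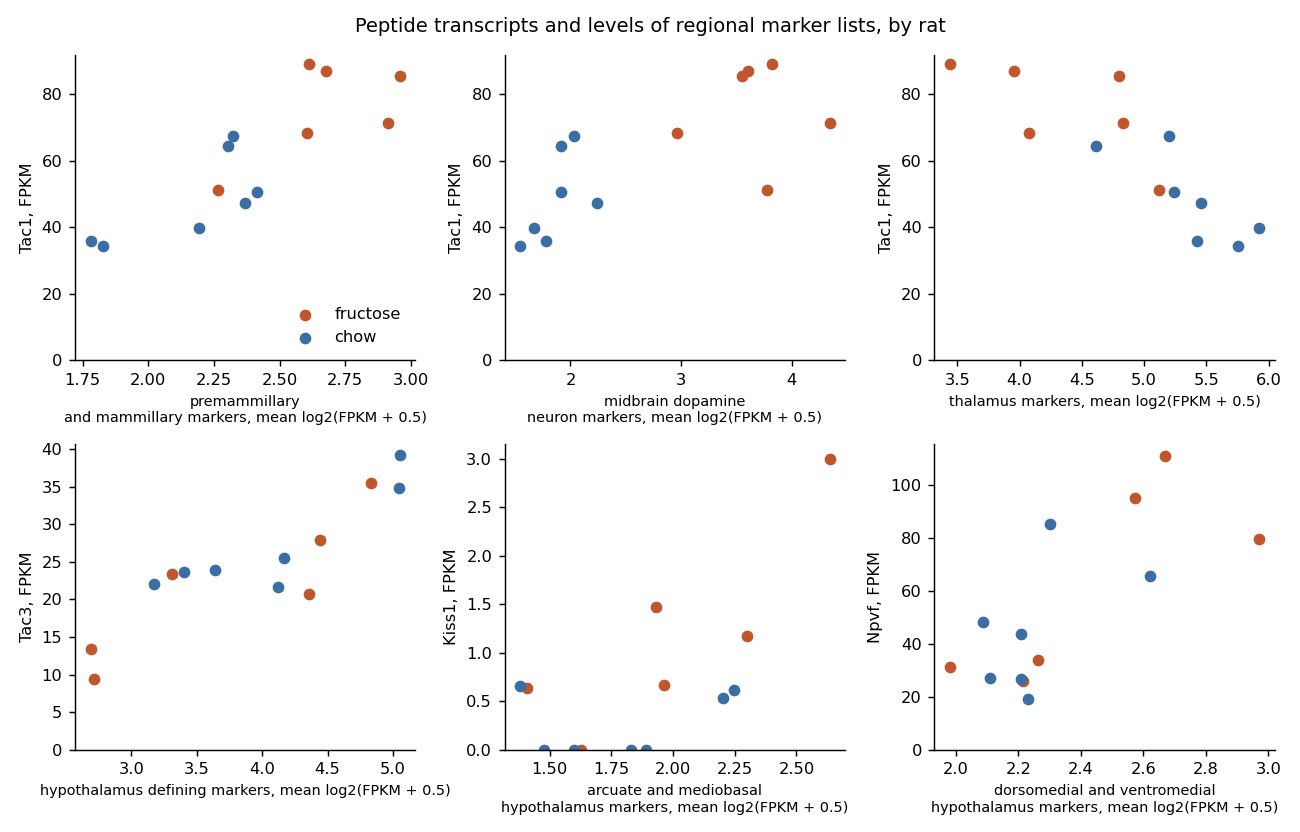
FPKM of Tac1, Tac3, Kiss1 or Npvf in each of 13 rats against the level of a regional marker list, a mean of log2(FPKM + 0.5). Fructose rats are orange and chow rats blue. Tac3 rises with the level of the hypothalamus list in both diets, and fructose replicates 1 and 5, with the lowest list levels (2.69 and 2.72), have the lowest Tac3.

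The other genes of these pathways did not differ by the test. Of 13 tested genes of tachykinin, kisspeptin and RFamide signalling outside the 7, 0 passed in either direction by limma, with 2 at an unadjusted p under 0.05 (Mme and Plcb3) and a median log2 fold change of -0.02. Mme, the peptidase neprilysin that degrades tachykinins, had 2.41 ± 0.499 FPKM (SD, n = 6) on fructose and 1.83 ± 0.452 FPKM (SD, n = 7) on chow, and Plcb3, a phospholipase C downstream of Gq, 6.14 ± 0.429 and 5.35 ± 0.376 FPKM in the same order. Their log2 fold changes were 0.33 ± 0.15 and 0.18 ± 0.07 (limma adjusted p = 0.254 and 0.164). Npffr1, the receptor of the RFamide-related peptides, had 1.87 ± 0.385 FPKM on fructose and 2.19 ± 1.57 FPKM on chow (0.01 ± 0.32, adjusted p = 0.992). Gnrh1, the gonadotropin-releasing hormone precursor, rested on 9 fragments in fructose rats and 15 in chow rats, read from the same spacing. Tac4 and Tacr2, the remaining tachykinin precursor and receptor, rested on 9 and 10 fragments in fructose rats and 8 and 8 in chow rats. Prlh and Qrfp were listed at 0 in all rats, and as for Npy such a 0 can be a failed estimate.

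Of 16 tested genes of the reproductive hypothalamus 1 rose, 0 fell and 15 did not pass, with a median log2 fold change of 0.10. The one that rose was Dlk1, an imprinted gene of the Notch ligand family linked to the timing of puberty in humans, at 90.2 ± 16.0 FPKM (SD, n = 6) on fructose and 54.3 ± 16.8 FPKM (SD, n = 7) on chow (0.76 ± 0.16, SE, limma adjusted p = 0.0274). Its call was lost without chow replicates 2, 4 or 7 or fructose replicates 2 or 4, with an adjusted p of up to 0.0696. Pdyn, the dynorphin precursor, had 32.0 FPKM on fructose and 37.6 FPKM on chow (-0.35 ± 0.31, adjusted p = 0.606), and its receptor gene Oprk1 5.18 and 4.64 FPKM in the same order (0.22 ± 0.20, adjusted p = 0.603). The steroid receptor genes Esr1 and Pgr had log2 fold changes of 0.05 ± 0.19 and 0.15 ± 0.18 (SE, limma adjusted p = 0.932 and 0.718).

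Of 11 tested arcuate and mediobasal markers 2 rose, 0 fell and 9 did not pass (median 0.10). Those that rose were the melanocortin receptor Mc3r (0.98 ± 0.20, SE, limma adjusted p = 0.0258) and the ghrelin receptor Ghsr (1.01 ± 0.24, adjusted p = 0.0346). Of 10 tested dorsomedial and ventromedial markers 3 rose, 0 fell and 7 did not pass (median 0.17), and beside Adcyap1 they were the transcription factor Sox14 (0.73 ± 0.18, adjusted p = 0.0389) and the neurotrophin Bdnf (0.48 ± 0.13, adjusted p = 0.0496). Of 14 tested striatal and forebrain markers 4 rose, 0 fell and 10 did not pass (median 0.15), led by Nrgn, Emx2 and Ppp1r1b. Of 13 tested genes that define the hypothalamus 0 passed in either direction by limma (median -0.33, with 5 of 13 estimates above 0). Among them 1 (Pmch) had an unadjusted limma p under 0.05. The level of that list averaged 3.72 ± 0.94 (SD, n = 6) on fructose and 4.08 ± 0.75 (SD, n = 7) on chow. On it 2 fructose rats lay below all chow rats. With 1 rat left out the calls of Mc3r, Ghsr, Sox14 and Bdnf were kept in 9, 6, 3 and 1 of 13 limma fits, with adjusted p up to 0.0641, 0.0884, 0.0930 and 0.1045. Each was lost without chow replicates 2 or 4 or fructose replicates 4 or 6, and the 3 last named also in other fits.

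The genes whose deviations from the diet means were most like each of the 7 are given as a description, since they are the highest of 11837. Tac1 was closest to Hcrtr2, an orexin receptor gene (r = 0.91), Serpini1, the serine protease inhibitor neuroserpin (0.91), and Hs3st2, a heparan sulfate sulfotransferase (0.89), each over 13 rats. Tac3 was closest to Tmed3 (0.95), a protein of vesicle transport, Rnf166 (0.93) and Penk, the enkephalin precursor (0.92). Npvf was closest to Adck4 (0.90), Prelp (0.88), a matrix proteoglycan, and Pced1b (0.88).

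Tacr1 was closest to Rxra, a retinoid X receptor (0.93), Fam46a (0.92) and Tgfb2, a transforming growth factor (0.92). Tacr3 was closest to Pkia, an inhibitor of protein kinase A (0.96), Samd14 (0.94) and Slit2, an axon guidance protein (0.94). Kiss1r was closest to the adrenergic receptor Adra2c (0.91), to Srebf2, a regulator of cholesterol synthesis (0.90), and to Maz (0.88). Kiss1 was closest to Trmt13 (0.90), Chrd (0.89) and Apbb3 (0.88), on its few fragments. None of these 21 genes was called different between diets, with limma adjusted p of 0.101 or more.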

How the data were processed

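The authors deposited 1 table of FPKM per gene and rat. The tools listed per the submitters' processing notes are Cufflinks 2.1.1, Cuffdiff and STAR 2.3.0e, with the rat build rn5. What each tool did and how libraries were scaled is not stated. Columns were matched to rats by title, and diets came from the labels. Replicates were numbered in accession order, so a number pairs nothing. The rats were separate animals, and p-values measure the spread between them as if all were independent. Shared cages are unknown and could not be entered. A pair of chow rats shares the leading number of their titles, and no leading number occurs in both diets. What that number stands for is not stated.

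Values were analysed as log2(FPKM + 0.5), so fold changes of low genes are understated. Genes whose mean reached 0.5 FPKM were fitted with a trended empirical Bayes model (R 4.3.3, limma 3.58.1, two-sided), with Benjamini-Hochberg adjustment over all genes tested. The fit was checked on simulated data in which genes varied independently, so variation shared between genes in the real rats was not covered. The members and lists were chosen with earlier results of these data known. Genes named are the 7 members, for each the 3 genes with the highest r to it (predicted symbols and joined rows passed over), up to 3 genes that passed per list, and pathway and reproductive genes. Not all genes under that rule are printed. Low values of 992 rows gave the relative worth of 1 fragment per library (0.855 to 1.20, first chow rat = 1). Correlations used 100000 permutations within diets, computed in Python 3.11.15 with scipy 1.17.1. The settings varied were the pseudocount (0.1 and 1), the filter (none, or a mean reaching 2 FPKM), quantile and median-ratio scaling, robust empirical Bayes, array weights, a permutation test per gene, and leaving out each rat. Sequences are from RefSeq.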

Additional observations from a re-analysis of the deposited data

Results flagged for a closer look

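Each of the 7 transcripts and 11 list levels was examined in both diets, 36 groups in all, for a rat standing far from the rest by Dixon's 95% criterion, which chance meets in about 1 in 20 groups. It was met in 2 groups. Tacr3 was far lower in fructose replicate 5, at 5.23 FPKM, than in the next fructose rat, at 9.46 FPKM. The level of the dorsomedial and ventromedial markers was far higher in chow replicate 1, at 2.62 on the mean log2(FPKM + 0.5) scale, than in any other chow rat.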

How the results depend on the processing

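No paired analysis was possible because the replicate numbers were given in accession order. Tac1 kept its direction in all 22 alternatives. Its log2 fold change was 0.65 with no filter on low values (limma adjusted p = 0.0620) and with robust empirical Bayes (0.0520), where the call was lost, and 0.65 by the exact permutation test (adjusted p = 0.138), and 0.58 to 0.76 with 1 rat left out. The other alternatives kept the call. The members called were 0 with no filter, with robust empirical Bayes and by the exact permutation test, and 0 to 1 with 1 rat left out. Kiss1 ranged from 0.90 to 1.30 on the log2 scale with 1 rat left out, and without fructose replicate 4 it was not tested, its mean then being under 0.5 FPKM. The Tacr1 log2 fold change, 0.01, turned to -0.060 under quantile normalization and ranged from -0.041 to 0.088 with 1 rat left out. That of Kiss1r, 0.01, turned to -0.012 under quantile normalization and ranged from -0.12 to 0.16 with 1 rat left out. The median log2 fold change of all genes was 0.0009, and 0.0059 and 0.0023 under quantile and median-ratio scaling. The number of genes called was 466, and 1019 with array weights, 308 with no filter, 0 by the exact permutation test (2223 at an unadjusted p under 0.05, 2269 by limma), and 83 to 859 with 1 rat left out. The order of levels was the same by medians. Read depth is unknown, which limits Kiss1 above all.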
